A study of Mus musculus with 40 samples.

Results

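Ucp1 and 8 further genes that mark brown fat or serve its heat production (Cidea, Elovl3, Cox8b, Cox7a1, Ppargc1a, Prdm16, Ppara and Zic1) were followed in mouse brown adipose tissue. They were chosen by name, and each was found once among the 52636 genes of the counts table; all 9 were among the 17079 genes tested. Tissue came from male C57BL/6 mice, as 40 libraries, 5 in each of 8 groups, and each library is called a mouse here. Their age is given as 10 to 14 weeks in one label and 10 to 12 weeks in another. Control mice received a single intraperitoneal dose of 40 mg/kg of an anti-ragweed isotype control antibody. Jag antibody mice received 2 blocking antibodies, one to each of the Notch ligands Jag1 and Jag2, at 20 mg/kg each. Collection of both kinds of mice was at 15 h, 5 d or 7 d. Additional control and Jag antibody mice, also collected at 7 d, received T4 at 1 ug and T3 at 0.05 ug per g of body weight daily from day 2 (called hormone mice here). Every mouse received an antibody, and no mouse received the hormone alone. The antibodies were given to the whole animal, so the fat was not their only possible site of action.

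Brown adipocytes burn fatty acids for heat. Ucp1, in the inner mitochondrial membrane, lets protons return to the matrix without making ATP, and its gene is switched on by noradrenaline through cyclic AMP, by thyroid hormone and by PPAR factors. Prdm16 and Ppargc1a are transcriptional regulators of the brown fat programme, Zic1 marks the classical brown fat lineage, and Ppara encodes a nuclear receptor that controls fatty acid oxidation genes. Cidea serves the lipid droplet, Elovl3 lengthens fatty acids, and Cox8b and Cox7a1 belong to the respiratory chain.

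In GRCm38 coordinates (GENCODE M21), Ucp1 (ENSMUSG00000031710) spans chromosome 8 from 83290352 to 83298452. Cidea is ENSMUSG00000024526. Elovl3 (ENSMUSG00000038754) spans chromosome 19 from 46131897 to 46135694. Both cytochrome oxidase genes are on chromosome 7, Cox8b (ENSMUSG00000025488) from 140898945 to 140900446 and Cox7a1 (ENSMUSG00000074218) from 30184144 to 30186078. Ppargc1a (ENSMUSG00000029167) spans chromosome 5 from 51454250 to 51567726 and Prdm16 (ENSMUSG00000039410) spans chromosome 4 from 154316125 to 154636873. Ppara (ENSMUSG00000022383) spans chromosome 15 from 85734983 to 85802819, and Zic1 (ENSMUSG00000032368) spans chromosome 9 from 91358058 to 91365810. All 9 are protein coding, and a count is taken over the whole gene.

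RefSeq promoter entries (GRCm38.p6) were matched for 7 of the 9 genes, all but Cidea and Elovl3. The bases before the start site are shown for 3 genes that fell with the hormone and for Ppargc1a, which did not pass that test. They run 5′ to 3′ on the gene's strand, and capitals mark the letters TGACG (the core of the cyclic AMP response element) or AGGTCA (the core bound by many nuclear receptors), on either strand.
Ucp1, chr8:83290098-83290347, plus strand: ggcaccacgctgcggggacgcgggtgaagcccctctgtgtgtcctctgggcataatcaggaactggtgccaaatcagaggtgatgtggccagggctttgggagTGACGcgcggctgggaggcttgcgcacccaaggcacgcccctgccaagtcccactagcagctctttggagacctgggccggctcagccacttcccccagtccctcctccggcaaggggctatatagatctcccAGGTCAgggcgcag
Cox8b, chr7:140900447-140900696, minus strand: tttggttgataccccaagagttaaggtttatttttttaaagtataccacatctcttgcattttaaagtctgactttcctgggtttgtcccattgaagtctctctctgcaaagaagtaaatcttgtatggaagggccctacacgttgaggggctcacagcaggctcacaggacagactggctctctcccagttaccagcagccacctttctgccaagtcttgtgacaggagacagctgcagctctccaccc
Cox7a1, chr7:30183921-30184143, plus strand: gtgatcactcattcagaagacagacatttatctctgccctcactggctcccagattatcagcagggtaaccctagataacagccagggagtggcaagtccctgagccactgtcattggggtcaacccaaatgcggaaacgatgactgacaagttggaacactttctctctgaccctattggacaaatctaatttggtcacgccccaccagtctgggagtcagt
Ppargc1a, chr5:51567727-51567975, minus strand: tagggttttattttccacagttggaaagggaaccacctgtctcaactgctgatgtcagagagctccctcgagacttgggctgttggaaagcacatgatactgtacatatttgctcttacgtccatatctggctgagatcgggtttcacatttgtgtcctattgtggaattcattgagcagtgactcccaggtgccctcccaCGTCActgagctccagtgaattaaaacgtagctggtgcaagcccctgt
In Ucp1, TGACG lay at bases -147 to -143 and AGGTCA at bases -14 to -9 from the RefSeq start, both on the gene's strand. Ppargc1a held TGACG on the opposite strand at bases -49 to -45, where the printed strand reads CGTCA, and Ppara held it at bases -222 to -218 on its own strand. The windows shown for Cox8b and Cox7a1 held neither. TGACG stood in 17.8% and AGGTCA in 14.0% of the 250-base windows of 32851 promoters, so a match is common. The longer TGACGTCA and the direct repeat of AGGTCA with 1 base between, which contain the shorter motifs, and TATAAA were found in none of the 7 and stood in 1.55%, 0.0335% and 12.4% of all windows.

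Each library held 12217623 to 36511893 counts. The tissue label was checked on Ucp1, whose lowest count was 12504, and on 12 genes that mark white or beige fat. These 12 summed to 62.6 to 1020 CPM in a library, so several were expressed; 3 of them, Hoxc9, Hoxc10 and Tcf21, had 25, 2 and 0 counts over all 40 libraries. Some libraries stood apart in ways that touch the results. Control mice 2 and 3 at 15 h had the highest myeloid scores (8.61 and 6.67, mean log2 CPM of 10 myeloid genes), and skeletal muscle transcripts were high in some mice of every group except the Jag antibody mice at 5 d. The length slope, which measures how far a library favours long over short transcripts, was lowest in control mice 2 and 5 at 5 d (-0.38 and -0.45) and control mice 2 and 4 at 7 d (-0.28 and -0.54). Log2 CPM is the count divided by the library total times a TMM factor, on the log2 scale. That factor is fitted to each library and ran from 0.647 to 1.28. CPM summed over a list of genes is scaled to the library total alone. A difference in log2 CPM is therefore not a difference in share of reads. A gene is said to have risen, fallen or been called where its adjusted p was under 0.05 in edgeR's quasi-likelihood test with Benjamini-Hochberg adjustment over all 17079 genes.

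Compared per length, as TPM (reads per base of exonic length, scaled to a common sum), the genes differed widely in level. In control mice at 7 d the median level was 15400 TPM for Cox8b, 14200 for Ucp1, 7300 for Cidea and 4790 for Cox7a1. Elovl3 followed at 338 TPM and Ppara at 21.6. Ppargc1a was at 10.4 TPM, Prdm16 at 4.71 and Zic1 at 0.885. Ucp1, Cidea, Elovl3, Cox8b and Cox7a1 each had their highest group mean in control mice at 7 d, as the plot of all 9 genes by group shows. Mean Ucp1, in log2 CPM, descended from 13.69 ± 0.66 (SD, n = 5) there to 12.78 ± 1.09 in Jag antibody mice at 7 d. The next 5 groups lay together between 12.27 and 11.91, and control mice at 15 h were lowest at 10.88 ± 1.15. Neighbouring groups in the order of each gene were set against each other in exact two-sided permutation tests. These tests are a description, since the order comes from the same values. Of 63 neighbour pairs 0 passed adjustment, with a lowest adjusted p of 0.5. The smallest p such a test can give with 5 against 5 mice is 0.00794. A pair at that p could pass only if many others reached it too, and neighbours are the groups closest in mean. A 0 was therefore likely from the start and does not show that neighbouring groups were alike. An unadjusted p under 0.05 was found for 3 pairs, all in Elovl3.

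**Figure D1:**
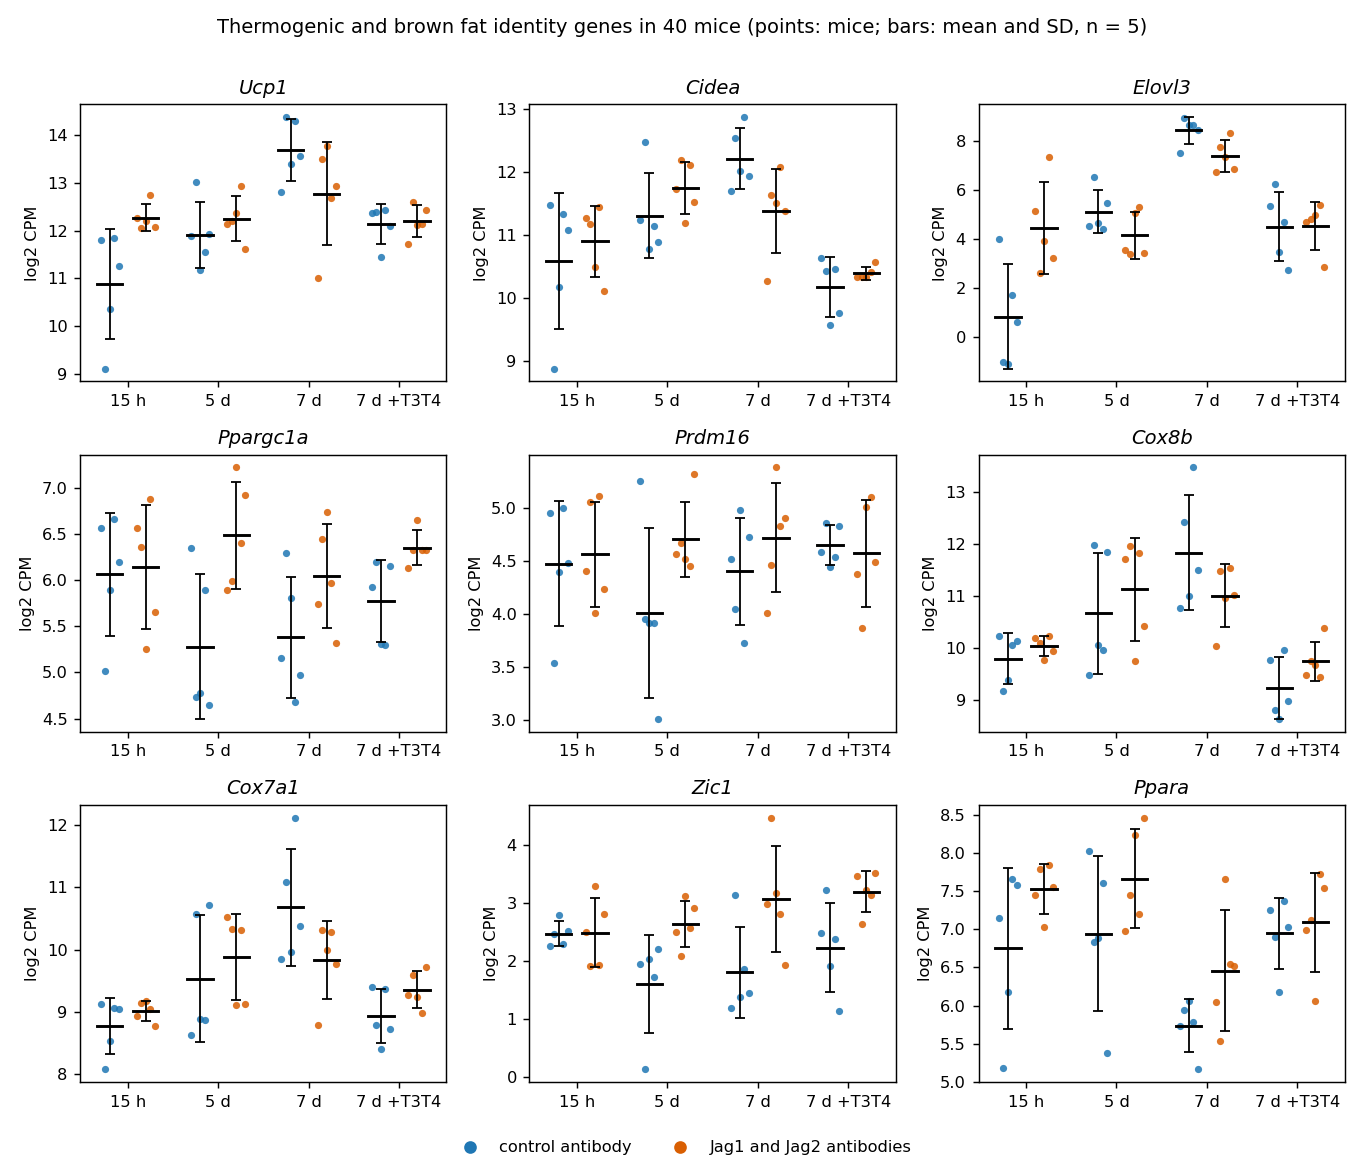
Log2 CPM of the 9 genes in each mouse (vertical axis, 1 panel per gene) by time and hormone (horizontal axis), blue for control antibody and orange for Jag1 and Jag2 antibodies, with bars for mean and SD (n = 5). Elovl3 covers the widest range of group means, from 0.84 in control mice at 15 h to 8.45 in control mice at 7 d, while Prdm16 stays between 4.01 and 4.72.

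Thyroid hormone was compared with no hormone at 7 d, first in control antibody mice. Ucp1, the lipid genes Cidea and Elovl3 and the oxidase subunits Cox8b and Cox7a1 fell, by 3.05-fold to 11.5-fold, while Ppara, a fatty acid sensing nuclear receptor, rose 2.37-fold. The regulators Ppargc1a, Prdm16 and Zic1 did not pass the test. Thus 6 of 9 genes were called, against 43.2% of all genes tested, and 5 fell, against 22.9%. In log2 CPM all 6 were free of overlap between the groups, but the share of all genes without overlap was not counted. In TPM the groups overlapped for Ucp1 and Cox7a1.

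Ucp1 stood at 12.8, 14.38, 13.4, 14.29 and 13.57 log2 CPM in control mice 1 to 5 without hormone and at 12.37, 12.4, 11.44, 12.43 and 12.09 in those with it. On this scale every hormone mouse was below every mouse without hormone, and the change was -1.61 (SE 0.42, adjusted p = 0.00229). In TPM the groups overlapped, at 8380 to 17700 without hormone and 5840 to 10400 with it. The TMM factors did not overlap, at 0.647 to 0.926 without hormone and 1.01 to 1.18 with it. Cidea, a lipid droplet protein, was at 11.7, 12.55, 12.02, 12.88 and 11.95 without hormone and at 10.64, 10.43, 9.57, 10.47 and 9.76 with it. The groups were more than 1 log2 unit apart at their nearest, and Cidea fell by 2.05 (SE 0.38, adjusted p = 9.83e-05). Elovl3, which lengthens saturated fatty acids and is induced in active brown fat, was at 7.52, 8.94, 8.68, 8.66 and 8.46 without hormone and at 5.36, 6.25, 3.47, 4.7 and 2.75 with it. It fell by 3.52 (SE 0.88, adjusted p = 0.00178), the largest change of the 9, and its hormone mice were spread widely.

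Cox8b, a subunit of cytochrome c oxidase used in brown fat, heart and muscle, was at 10.77, 12.42, 11, 13.47 and 11.5 log2 CPM without hormone. With hormone it was at 9.77, 8.81, 8.63, 9.95 and 8.98, and it fell by 2.87 (SE 0.49, adjusted p = 4.85e-05). Control mice 2 and 4 without hormone were highest, and these are also the 2 with the lowest length slope. The length slope did not overlap between the groups, at -0.542 to -0.0593 without hormone and 0.0407 to 0.247 with it. Cox7a1, another oxidase subunit with the same tissue range, was at 9.85, 11.09, 9.97, 12.12 and 10.38 without hormone and at 9.4, 8.79, 8.41, 9.37 and 8.73 with it. The same 2 mice were highest, and Cox7a1 fell by 1.96 (SE 0.40, adjusted p = 0.000287). Without the libraries with a length slope under -0.25, the falls were 1.82 for Cox8b, 1.12 for Cox7a1 and 1.12 for Ucp1 (adjusted p = 0.00106, 0.00822 and 0.0493), with 3 control mice left. The length slopes of these 3 mice, from -0.171 to -0.0593, still lay below those of every hormone mouse.

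Ppara moved the other way. It was at 5.73, 5.94, 6.06, 5.78 and 5.16 log2 CPM without hormone and at 7.26, 6.9, 6.18, 7.38 and 7.03 with it, a rise of 1.24 (SE 0.42, adjusted p = 0.0162). Only mouse 3 of the hormone group came near the mice without hormone. Ppargc1a, the coactivator of mitochondrial genes, differed by 0.32 (95% interval -0.40 to 1.05). Prdm16, which drives brown over muscle fate, differed by 0.19 (-0.46 to 0.83), and Zic1, a zinc finger factor of the lineage, by 0.40 (-0.43 to 1.23). Their groups overlapped.

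Other tissue components moved with the hormone in control mice. The summed level of 8 general adipocyte genes ranged from 25200 to 33500 CPM without hormone and from 17500 to 21400 with it, and 2 of the 8 fell. Myeloid genes ranged from 77 to 177 CPM and then 556 to 1260 (6 of 10 rose), and fibroblast genes from 438 to 990 and then 2180 to 5230 (6 of 8 rose). Of 6 proliferation genes 5 rose, among them Mki67 (32.5-fold) and Top2a (28.8-fold), both expressed in dividing cells. Of 8 endothelial genes Pecam1, Cdh5, Kdr, Esam and Tie1 rose and Emcn fell. The part of these components in the changes of the 9 genes was not tested beyond the covariates given here. In bulk tissue, fewer brown adipocytes and less RNA per adipocyte cannot be told apart. With the mean log2 CPM of the general adipocyte genes as a covariate, the change of Ucp1 was -0.38 (adjusted p = 0.453) and that of Elovl3 -1.89 (0.104), neither called. Under the same covariate Cidea (-0.88), Cox8b (-2.43) and Cox7a1 (-1.64) remained called as lower and Ppara (2.58) as higher, and Ppargc1a (1.21) and Prdm16 (0.93) were called as higher. The adipocyte score did not overlap between these 2 groups, and the covariate's slope is estimated from the spread within the 8 groups. Without the libraries with a muscle score over 5, which left 3 and 2 mice, 0 of the 6 were called, with Ucp1 at -1.21 and Cox8b at -1.67.

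**Figure D2:**
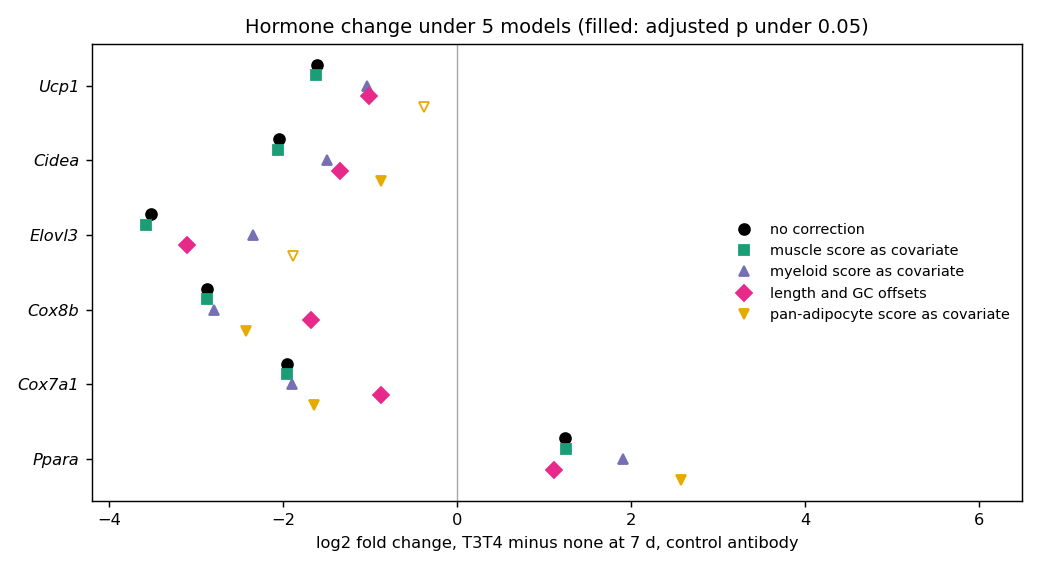
Log2 fold change with hormone in control antibody mice at 7 d (horizontal axis) for the 6 called genes (rows) under 5 models (symbols), filled where the adjusted p is under 0.05. The 5 genes that fell stay left of 0 in every model shown, and Ucp1 moves from -1.61 without correction to -1.01 with length and GC offsets and -0.38 with the adipocyte score.

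Wider brown fat genes and regulators were counted from lists that do not include the 9. Of 22 further brown fat genes, 4 rose and 7 fell with hormone in control mice (50.0% called, against 43.2% of all genes; median change -0.45, against 0.04). The 4 with the smallest adjusted p among those that fell were S100b (-2.35), which supports nerve growth into the tissue, Eva1a (-1.23), Clstn3 (-1.35) and Slc25a20 (-1.08), the carnitine carrier of mitochondria. Those that rose were Impdh1 (1.63), Epsti1 (1.91), Bmp8b (1.78) and Pdk4 (0.78). Of 19 regulators of Ucp1, Zfp516 rose (1.03) and Tfam (-0.76), Esrra (-1.19), Cebpb (-1.01) and Thra (-0.55) fell; Esrra is a partner of Ppargc1a and Thra a thyroid hormone receptor. These 5 are 26.3% of that list, below the 43.2% called among all genes.

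In Jag antibody mice the same comparison called 1 of the 9 genes, against 9.5% of all genes. Elovl3 was at 6.75, 7.76, 7.35, 8.35 and 6.86 log2 CPM in Jag antibody mice 6 to 10 without hormone and at 4.72, 4.83, 4.98, 5.4 and 2.86 with it. The groups did not overlap, and Elovl3 fell by 2.78 (SE 0.85, adjusted p = 0.0335), a call lost in 7 of the 10 fits that left out 1 mouse. Ucp1 was at 11, 13.5, 13.78, 12.68 and 12.93 without hormone and at 11.73, 12.61, 12.12, 12.15 and 12.43 with it. These groups overlapped through mouse 6, and the change was -0.80 (95% interval -1.63 to 0.03, adjusted p = 0.2). Cidea differed by -1.09 (adjusted p = 0.0537), Cox8b by -1.31 (0.0677) and Cox7a1 by -0.54 (0.381). DESeq2 called the first pair of these, at -1.07 and -1.28. The length slope did not overlap in this comparison either, at -0.159 to 0.0257 without hormone and 0.0399 to 0.187 with it.

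Whether the hormone change differed between antibodies was tested as an interaction, and 0 of 9 genes were called by edgeR, against 0.00586% of all genes; 2 had an unadjusted p under 0.05, against 12.3%, and DESeq2 called 0. These 2 were Cox8b, whose change was 1.57 less negative in Jag antibody mice (95% interval 0.24 to 2.89, adjusted p = 0.374), and Cox7a1 (1.42, interval 0.30 to 2.54, adjusted p = 0.374). For Ucp1 the difference was 0.81 (interval -0.36 to 1.97). Of the 22 further brown fat genes, 2 rose and 2 fell with hormone in Jag antibody mice (18.2% called, against 9.5%; median -0.14, against -0.04). There Adrb3, the adrenergic receptor of brown adipocytes, fell by 3.40 and S100b by 2.17, while Impdh1 (2.34) and Eva1a (0.90) rose. Adrb3 also fell in control mice, by 1.22. Of the 19 regulators 2 fell, Rxra (-0.56) and Thra (-0.68), where 9.5% of all genes were called. Of the further brown fat genes, Eva1a was called in the interaction (2.14, adjusted p = 0.0494). Set against control mice without hormone, Jag antibody mice with hormone had 7 of 9 genes called, against 38.5%, with Ucp1 at -1.56, Cidea at -1.88, Elovl3 at -3.76, Cox8b at -2.42, Cox7a1 at -1.56, Ppara at 1.43 and Zic1 at 1.25. That comparison, the hormone comparison in control mice and the antibody comparison at 7 d share the control mice without hormone.

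**Figure D3:**
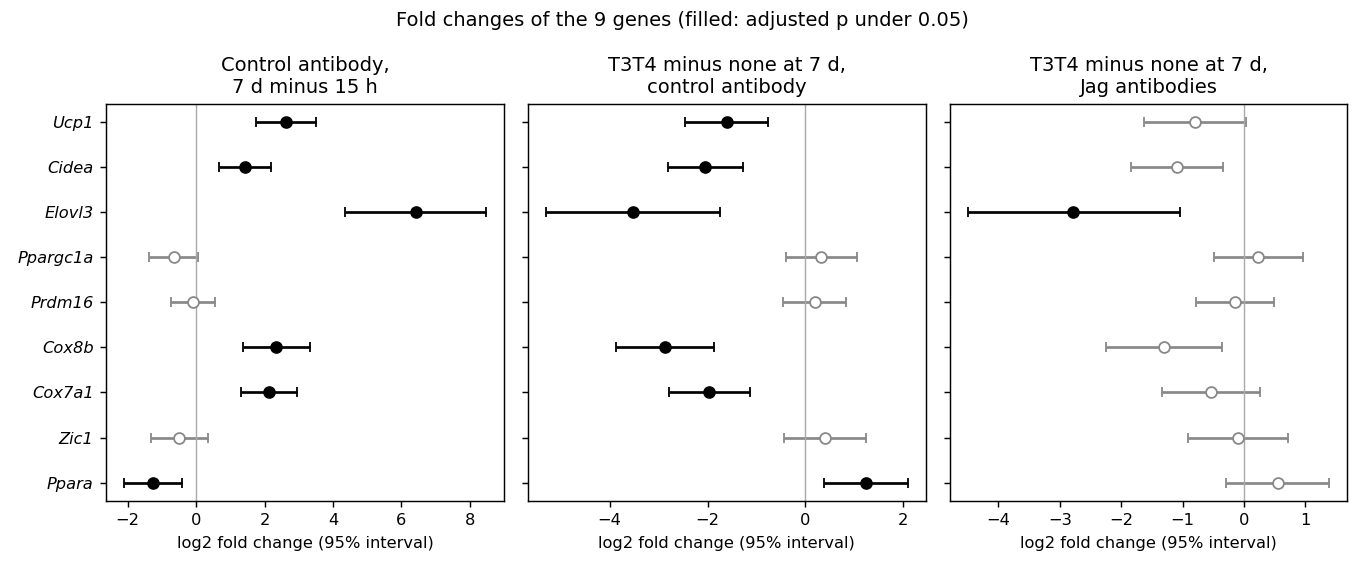
Log2 fold change (horizontal axis, with its 95% interval) of the 9 genes (rows) between 7 d and 15 h in control mice, and with hormone at 7 d under each antibody; filled symbols have an adjusted p under 0.05. Ucp1, Cidea, Elovl3, Cox8b and Cox7a1 are right of 0 in the first panel and left of it in the second, and the first 2 panels share the control mice at 7 d.

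The Jag antibodies were compared with the control antibody at each time. At 15 h, 1 of 9 genes was called, against 1.14% of all genes. Elovl3 was at 4.02, -1.01, -1.12, 1.72 and 0.6 log2 CPM in control mice 1 to 5 and at 5.16, 2.61, 3.92, 7.36 and 3.24 in Jag antibody mice 6 to 10. It was 3.41 higher (SE 0.88, adjusted p = 0.0482), although control mouse 1 lay within the range of the Jag antibody mice, and its lowest count was 6. Control mice 2 and 3, the pair highest in myeloid score, were lowest, and without them the change was 2.72 (adjusted p = 0.644). The call was lost in 8 of the 10 fits that left out 1 mouse. Without Jag antibody mouse 9 the change was 1.94 (adjusted p = 0.333) and without control mouse 1 it was 5.12 (0.0052), and fitting only the 2 groups gave 3.41 with an adjusted p of 0.375. Ucp1 was at 11.8, 9.11, 10.37, 11.84 and 11.27 in control mice and at 12.27, 12.05, 12.21, 12.75 and 12.08 in Jag antibody mice, without overlap. Its change of 1.12 (95% interval 0.29 to 1.95, adjusted p = 0.176) did not pass the test, and the same 2 control mice were lowest.

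At 5 d, 1 of 9 genes was called, against 8.02% of all genes. Ppargc1a was at 6.35, 4.73, 4.78, 5.89 and 4.65 log2 CPM in control mice and at 5.89, 5.99, 7.22, 6.4 and 6.92 in Jag antibody mice. It rose by 1.11 (SE 0.36, adjusted p = 0.0489), with control mouse 1 inside the range of the Jag antibody mice and control mouse 4 at its lower edge. The 8 skeletal muscle genes summed to 918 to 129000 CPM in control mice at 5 d and to 0.87 to 44.3 CPM in Jag antibody mice, and with the muscle score as a covariate the change was 0.90 (adjusted p = 0.431). The call was also lost in 6 of the 10 fits that left out 1 mouse. Cox8b (0.32) and Cox7a1 (0.18), both also expressed in muscle, overlapped between these groups. Of the 22 further brown fat genes 2 were called at 5 d (9.09%, against 8.02%; median 0.39, against 0.04). Slc27a2, a fatty acid transport protein, rose by 1.42 and Bmp8b, a signal that sensitises brown fat to noradrenaline, fell by 3.54. Of the 19 regulators 1 was called, against 8.02% of all genes, and this was Tbx15, which fell by 3.20. The changes of Slc27a2, Bmp8b and Tbx15 were not tested with the muscle score as a covariate.

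At 7 d without hormone edgeR called 0 of 9 genes, against 2.5% of all genes; 5 had an unadjusted p under 0.05, against 20.5%, and DESeq2 called 1. Zic1, the gene DESeq2 called (1.34, adjusted p = 0.0284), was at 1.19, 3.15, 1.38, 1.86 and 1.45 log2 CPM in control mice and at 2.98, 4.48, 3.18, 2.81 and 1.94 in Jag antibody mice. The groups overlapped through control mouse 2, and edgeR gave 1.35 (95% interval 0.51 to 2.19, adjusted p = 0.0695). The other 4 were Cidea (-0.79), Cox8b (-1.11), Cox7a1 (-1.02) and Ppara (0.88), with adjusted p from 0.147 to 0.224. Ucp1 differed by -0.76 (interval -1.59 to 0.06). With hormone, edgeR called 0 of 9 genes, against 1.14%; 1, Zic1 (0.85), had an unadjusted p under 0.05, against 11.9%, and DESeq2 called 0. Ucp1 differed there by 0.05 (interval -0.78 to 0.87). Of the 22 further brown fat genes 1 was called at 7 d without hormone (4.55%, against 2.5% of all genes) and 3 with it (13.6%, against 1.14%). Bmp8b was lower in Jag antibody mice both without (-2.49) and with hormone (-3.14), Adrb3 was lower (-2.43) and Eva1a higher (1.39) with hormone, and the retinoid X receptor gene Rxra was higher (0.72) without it.

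Time after the dose was compared within each antibody. Control mice at 7 d against 15 h, a comparison added after the values were seen, had 6 of 9 genes called, against 45.1% of all genes. Ucp1 rose 6.17-fold (2.63, SE 0.43, adjusted p = 2.53e-05) and Elovl3 85.4-fold (6.42, SE 1.01, adjusted p = 1.97e-05). Cidea (1.43), Cox8b (2.34) and Cox7a1 (2.12) also rose, and Ppara fell by 1.25. All 6 remained called without the 2 control mice at 15 h that were highest in myeloid score, with Ucp1 at 2.15 and Elovl3 at 5.73. Without control mouse 1 at 15 h the change of Elovl3 was 8.12 on the log2 scale. The call of Cidea ended with the myeloid score as a covariate (0.71, adjusted p = 0.141), and that of Ppara without the libraries with a muscle score over 5 (-0.46, adjusted p = 0.55). The length slope did not overlap between these groups (0.0485 to 0.162 at 15 h, -0.542 to -0.0593 at 7 d). With each library's length and GC trend removed as offsets the changes were 2.25 for Ucp1, 6.10 for Elovl3, 1.12 for Cox8b, 1.03 for Cox7a1 and -1.28 for Ppara, all called, and 0.69 for Cidea, not called (adjusted p = 0.0942). All 10 myeloid genes fell over this interval, from 307 to 8010 CPM in sum at 15 h to 77 to 177 CPM at 7 d. Of the 22 further brown fat genes 12 rose and 1 fell, where 45.1% of all genes were called (median 0.82, against -0.06 for all genes).

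Between 15 h and 5 d in control mice 3 of 9 genes rose, against 36.4% called, namely Elovl3 (3.26), Cox8b (1.18) and Cox7a1 (1.00); without the 2 control mice at 15 h highest in myeloid score edgeR called 0. The calls of Cox8b and Cox7a1, both also expressed in muscle, were each lost in 4 of 10 fits that left out 1 mouse, and every control mouse at 5 d had a muscle score over 5 (5.10 to 13.71). With length and GC offsets the difference was 0.18 for Cox8b (adjusted p = 0.602) and 0.09 for Cox7a1 (0.798), neither called. Without control mouse 1 at 15 h the change of Elovl3 was 5.01. Between 5 d and 7 d Ucp1 (1.75, adjusted p = 0.0091) and Elovl3 (3.15) rose and Ppara fell by 1.43, 3 of 9 against 9.13%. Leaving out 1 mouse ended the call of Elovl3 in 3 and of Ppara in 5 of 10 fits, and with the muscle score as a covariate only Ucp1 was called (1.6, adjusted p = 0.0389). In Jag antibody mice edgeR called 0 of 9 between 15 h and 5 d, against 14.5% (3 at an unadjusted p under 0.05, against 31%; DESeq2 1), and 1 of 9 between 5 d and 7 d, against 3.29%, which was Elovl3 (3.13, adjusted p = 0.0373, lost in 6 of 10 fits that left out 1 mouse). From 15 h to 7 d in these mice edgeR called 0 of 9, against 18.3% (4 at an unadjusted p under 0.05, against 34.3%; DESeq2 0), and Ucp1 differed by 0.74 (95% interval -0.08 to 1.57). Whether the time course differed between antibodies was tested for both intervals. From 15 h to 5 d edgeR called 0 of 9, against 0.0995% (1 at an unadjusted p under 0.05, against 14.6%; DESeq2 1), with Elovl3 at -4.38 (interval -6.79 to -1.97, adjusted p = 0.0944). From 5 d to 7 d it called 0 of 9, against 1.29% (3 at an unadjusted p under 0.05, against 16.7%; DESeq2 0), and Ucp1 differed by -1.02 (interval -2.19 to 0.14).

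Gene length ran alongside the values. Over the 40 libraries the level of Cox8b, whose exonic length of 360 bases is the shortest of the 9, correlated with the length slope at r = -0.93, and the value within groups was -0.92. Cox7a1 (535 bases) followed at -0.88 (-0.89 within groups) and Cidea (1115 bases) at -0.70 (-0.44). Ucp1 and Elovl3 were both at -0.49 and at -0.35 and -0.20 within groups. Ppargc1a (6592 bases) and Prdm16 (9321 bases) were at 0.52 and 0.48 (0.50 and 0.53). These are descriptions over libraries that share groups and processing. With each library's length and GC trend removed as offsets, the hormone changes in control mice were -1.01 for Ucp1 (adjusted p = 0.0358), -1.35 for Cidea, -3.11 for Elovl3, -1.68 for Cox8b, -0.87 for Cox7a1 and 1.11 for Ppara, all 6 called. The change of Cox7a1 on the log2 scale was thus 0.87 in place of 1.96.

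**Figure D4:**
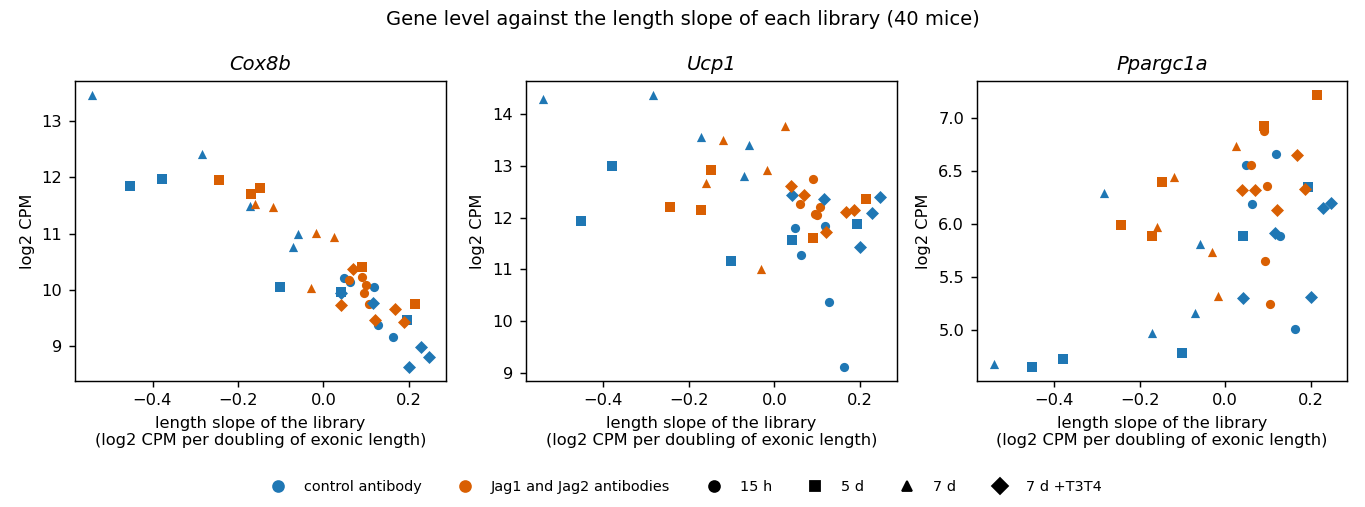
Log2 CPM of Cox8b, Ucp1 and Ppargc1a (vertical axes) against the length slope of each of the 40 libraries (horizontal axes, log2 CPM per doubling of exonic length), coloured by antibody with a symbol per time and hormone. Cox8b descends along the axis (r = -0.93), Ucp1 does so less (r = -0.49), and Ppargc1a climbs (r = 0.52).

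Ratios of a member to a related gene, and of each member to the general adipocyte score, were taken within the same library. Both kinds were tested between groups by exact permutation, two-sided, whose smallest p with 5 against 5 mice is 0.00794. A ratio at that p could pass adjustment only if many others reached it too. Of 102 ratio tests of both kinds, adjusted together, 0 passed adjustment. Only some of the ratios to a related gene are described here. Ucp1 to Ucp2, a relative expressed in many tissues and in immune cells, was 8.03 ± 0.68 (log2 ratio, SD, n = 5) without hormone and 5.28 ± 0.69 with it in control mice (exact permutation p = 0.00794, adjusted p = 0.0578). Ucp2 itself rose by 1.29 there. Cox8b to Cox8a, the form found in all tissues, was 1.74 ± 0.21 without and 1.13 ± 0.18 with hormone in control mice, and 1.84 ± 0.10 and 1.35 ± 0.14 in Jag antibody mice, with no overlap in either pair (both adjusted p = 0.0578). Over the 40 libraries that ratio followed the length slope at r = -0.67. Cox7a1 to Cox7a2 differed by -0.06 (exact permutation p = 0.524), and Cox8a (-2.16) and Cox7a2 (-1.83) fell with hormone in control mice as well. Cidea to Cidec, the droplet protein shared with white fat, differed by -0.40 (exact permutation p = 0.159), and Cidec fell by 1.70 there. At 7 d without hormone it was 1.91 ± 0.30 in control and 0.59 ± 0.71 in Jag antibody mice, without overlap (adjusted p = 0.0578). Ppara to Pparg was 1.66 higher with hormone in control mice (adjusted p = 0.0578). Over the 40 libraries this ratio followed the length slope at r = 0.54 (0.51 within groups) and Ucp1 to Ucp2 at -0.43 (-0.15). For Cox7a1 to Cox7a2 the value was -0.29 (-0.28) and for Cidea to Cidec -0.21 (-0.17).

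**Figure D5:**
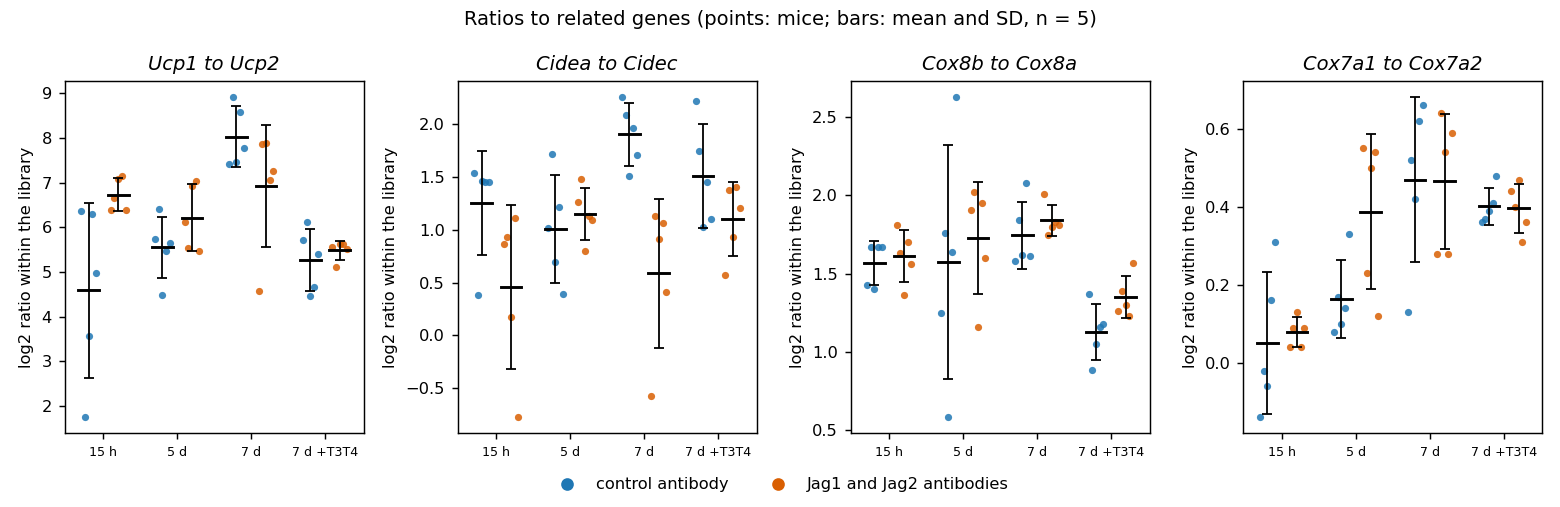
Log2 ratio of a member to a related gene within each library (vertical axes) by time and hormone (horizontal axes), blue for control antibody and orange for Jag antibodies, with bars for mean and SD (n = 5). Cox8b to Cox8a is lower in both hormone groups than in the 7 d groups without hormone, whereas Cox7a1 to Cox7a2 has means of 0.40 to 0.47 in all 4.

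The 10 genes whose log2 CPM was most like Ucp1 over the 40 libraries were Afg1l and Slc25a20 (Pearson r = 0.92 each), Mrps2, Atpaf2 and Pex19 (0.91 each), and Poldip2, Ndufab1, Uqcrfs1, Mmaa and Etfdh (0.90 each). Among the 17079 tested genes Elovl3 ranked 151 (r = 0.81), Cox7a1 317 (0.76), Cidea 517 (0.72) and Cox8b 1019 (0.65). Prdm16 ranked 5406, Ppargc1a 6893, Zic1 8206 and Ppara 8540. Cox8b and Cox7a1 were the closest pair of members (r = 0.94, and 0.96 within groups). Prdm16, Ppargc1a and Ppara formed a second set, with Ppargc1a and Prdm16 at 0.63, Ppargc1a and Ppara at 0.62 and Prdm16 and Ppara at 0.49. These correlations are descriptions, over libraries that fall into the same 8 groups and differ in depth and length slope.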

How the data were processed

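Bulk RNA from brown adipose tissue was sequenced as single-end 50 bp reads, per the labels' protocols. The authors deposited whole-number counts per Ensembl gene for 52636 genes, in 40 library columns; the deposited FPKM table was not used. GSNAP and limma are named in the submitters' processing notes, without role or version. The counting program, genome build and use of strand are not given in the sources used here, so reads of overlapping antisense genes cannot be told apart.

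Totals ran from 12217623 to 36511893 counts per library, so counting error is small beside the spread between mice for the members other than Elovl3 and Zic1, whose lowest counts were 6 and 22. Groups came from the labels, which name no batch and do not tie each library to an animal, so p-values measure the spread between these libraries. No 2 libraries of a group were alike (lowest chi-square per degree of freedom 19.4 over 80 pairs). The members, lists and tests were chosen with earlier results of these data known. The counts entered edgeR 4.0.16 (R 4.3.3) after filterByExpr over the 8 groups, which kept 17079 genes. TMM scaling was used with 1 robust quasi-likelihood model of all libraries, holding 1 mean for each group. Benjamini-Hochberg adjustment at 0.05 ran over all tested genes. Standard errors are those implied by the F statistic. Log2 CPM uses the TMM scaled totals and has a prior count of 2, and summed CPM uses the library totals alone. Symbols matched 52403 of 52636 genes, and 17050 tested genes had length and GC. The length slope is fitted within a library, as log2 CPM minus the average of all libraries against log2 exonic length; scores are the mean log2 CPM of a list. Named genes are the 9 members, up to 4 called genes per list and direction by smallest adjusted p in the antibody and hormone comparisons, the partner gene of each member, and the 10 genes most correlated with Ucp1. Adrb3 in control mice was named beyond that rule after its value was seen.

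Alternatives were DESeq2 1.42.0, RLE size factors, no low-count filter, only the groups compared, muscle, myeloid and general adipocyte scores as covariates, length and GC offsets, a replicate block, and leaving out each mouse; sets of libraries left out for their myeloid or muscle score or length slope were added after seeing the data. Tested on simulated data for the hormone comparison in control mice (16837 genes), the fit recovered 53 of 100 genes changed by 1 on the log2 scale and 86 of 100 changed by 2, with 7 false calls. Only these genes were changed in the simulation, which held no length trends and no shifts of tissue components. The 7 false calls therefore do not measure the error of the real comparison, where 43.2% of genes were called.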

Additional observations from a re-analysis of the deposited data

Results flagged for a closer look

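In 4 of the 72 sets of 5 mice (9 genes in 8 groups) 1 mouse lay far from the others by Dixon's test at 95%; chance gives about 3.6. Control mouse 2 at 5 d, which had a low length slope, was highest in Cidea at 12.49 log2 CPM (next 11.24) and lowest in Zic1 at 0.13 (next 1.72). Among the Jag antibody mice with hormone, mouse 10 was lowest in Elovl3 at 2.86 (next 4.72). Among the Jag antibody mice at 5 d, the one numbered 10 in that group was highest in Prdm16 at 5.32 (next 4.67).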

How the results depend on the processing

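The hormone comparison in control mice called 6 of the 9 genes under every alternative except leaving out the libraries with a muscle score over 5 (0, with 3 and 2 mice left) and the myeloid covariate (7); with the general adipocyte covariate the 6 were 3 higher and 3 lower. Counts for the other comparisons moved as follows, and the cause was not tested. The share of all genes called under each alternative is not given in this section. A change in these counts can therefore not be read as particular to the 9 genes. With DESeq2 the antibodies at 7 d gave 1 (0 with edgeR), the hormone in Jag antibody mice 3 (1), Jag antibody mice from 15 h to 5 d 1 (0) and the antibody by time term for that interval 1 (0). With RLE size factors the antibodies at 15 h and at 5 d each gave 0 (1). With no filter on low counts, both gave 0, as did the hormone in Jag antibody mice (1) and Jag antibody mice from 5 d to 7 d (1). With only the groups compared, the antibodies at 15 h and 5 d gave 0, the hormone in Jag antibody mice 3, control mice 0 from 15 h to 5 d (3) and 1 from 5 d to 7 d (3), and Jag antibody mice 3 from 15 h to 5 d and 2 from 15 h to 7 d (0). With length and GC offsets the antibodies at 5 d gave 0, the hormone in Jag antibody mice 2, and control mice 1 from 15 h to 5 d and 5 from 5 d to 7 d. With the muscle covariate the antibodies at 5 d gave 0, both intervals in control mice 1 each, and Jag antibody mice from 15 h to 7 d 1. With the myeloid covariate the antibodies at 5 d and the hormone in Jag antibody mice gave 0, and Jag antibody mice from 15 h to 5 d, the same from 15 h to 7 d, and the antibody by time term from 15 h to 5 d gave 1 each. With the general adipocyte covariate the antibodies gave 0 at 15 h and at 5 d and 1 at 7 d, control mice 5 from 15 h to 5 d, Jag antibody mice 2 from 15 h to 5 d, 2 from 5 d to 7 d and 2 from 15 h to 7 d, and the antibody by time term from 15 h to 5 d 1. Without the libraries with a length slope under -0.25 the antibodies gave 2 at 5 d and 1 at 7 d, and control mice from 15 h to 5 d 0. Without the libraries with a muscle score over 5 the antibodies at 15 h, the hormone in Jag antibody mice and Jag antibody mice from 5 d to 7 d gave 0, and Jag antibody mice with hormone against control mice without gave 3 (7); no control mouse at 5 d was left. Without the 2 control mice at 15 h highest in myeloid score the antibodies at 15 h and control mice from 15 h to 5 d gave 0.

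Leaving out each mouse in turn gave 6 to 6 calls for the hormone in control mice and 0 to 3 in Jag antibody mice. For the antibodies it gave 0 to 1 at 15 h, 0 to 2 at 5 d, 0 to 1 at 7 d and 0 to 0 at 7 d with hormone. Control mice gave 1 to 5 from 15 h to 5 d, 1 to 6 from 5 d to 7 d and 5 to 7 from 15 h to 7 d. Jag antibody mice gave 0 to 2, 0 to 2 and 0 to 1 for these intervals, and Jag antibody mice with hormone against control mice without gave 7 to 8. The interactions gave 0 to 0 with hormone, 0 to 1 from 15 h to 5 d and 0 to 0 from 5 d to 7 d.

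The labels do not say that same-numbered mice share an animal or batch, and their deviations from the group means correlated at means of 0.0819 to 0.195 over 6 pairs of groups, with a lowest pair of -0.364 and at most 2 of 5 mice correlating best with their own number, so the numbers were not taken as pairing. The replicate block left the hormone count in control mice at 6 and in Jag antibody mice at 1, and gave 1 for control mice from 15 h to 5 d and 1 for Jag antibody mice from 15 h to 7 d. The replicate block with length and GC offsets gave 6 and 2 for the hormone in control and Jag antibody mice, and 1 and 1 for the same 2 time comparisons. The 102 ratio tests and 63 neighbour tests gave 0 under each alternative run. With so large a smallest p and adjustment over so many tests, a 0 was likely whatever the setting. It is therefore no measure of stability. No change called with the main settings reversed its sign. Depth limits Elovl3 at 15 h and Zic1, at 6 and 22 counts in their lowest libraries.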
